A study of Mus musculus with 12 samples.

Results

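In thymocytes of floxed mice, 241 of the 1719 deposited ZFAT peaks lay beside acetylated chromatin without touching it. They were chosen from the deposited peak calls: each shared no base with an H3K9ac/K27ac peak of the same genotype, and its summit lay within 20 kb of the summit of such a peak on the same chromosome. They are called beside peaks here. Of the other floxed ZFAT peaks, 443 overlapped acetylation and 1035 were farther away; these are called overlapping and far peaks. Presence in the floxed ZFAT and H3K9ac/K27ac lists set the membership, so values from those lists are descriptions, and the 5 other lists carry the comparisons.

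ZFAT is a nuclear protein with zinc fingers and an AT-hook, a motif that contacts DNA in the minor groove, and it is known for its part in the development and survival of T cells. Acetylation of histone H3 at lysine 9 and lysine 27 marks active promoters and enhancers, and in MNase-treated chromatin it is read nucleosome by nucleosome, so an active region often appears as several separate peaks. Trimethylation of H3 at lysine 9 (H3K9me3) marks silenced chromatin and is abundant over repeats near centromeres.

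The chromatin came from thymocytes, T cells that are maturing in the thymus, from mice 4 to 5 weeks old of the genotypes Zfatf/f (floxed), Zfatf/f-LckCre (Lck-Cre) and C57BL/6 (B6). The floxed and the Lck-Cre mice both carry Zfat alleles flanked by recombination sites; in the latter, Cre driven by Lck regulatory sequence is designed to remove the flanked sequence in T lineage cells, and the extent of that removal cannot be read from peak lists. B6 mice carry the unmodified gene. ZFAT was profiled in all 3 genotypes, H3K9me3 only in floxed cells and H3K9ac/K27ac in both floxed genotypes, with 1 library in each group and no replicates. Chromatin was fixed with formaldehyde, cut with MNase and sonicated before precipitation. The labels do not say how many animals each library holds.

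Because each group is a single library, shares of peaks are given with exact Clopper-Pearson 95% intervals for counting error only, and differences between libraries or between classes of peaks were not tested. Beside the 1719 floxed ZFAT peaks stood 108 from Lck-Cre and 2000 from B6 mice, the latter against input, and 427 from the same B6 ChIP against IgG. H3K9me3 gave 2388 peaks, and acetylation gave 13016 in floxed and 2225 in Lck-Cre cells. Inferred depths ran from about 632000 fragments for B6 ZFAT to 2230000 for H3K9me3, with 1510000 for floxed ZFAT and 1350000 for Lck-Cre ZFAT. Positions are in mm9; no mm9 genome or annotation was used here, so neither gene names nor sequences are given, and the thymocyte label was not checked against marker genes.

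The beside peaks were spread over the whole 20 kb window. Summit distances to the nearest acetylation summit ran from 251 to 19886 bp, with quartiles of 4789 and 13779 bp around a median of 8385 bp. The smallest gap between peak edges was 82 bp, so no beside peak abutted an acetylation peak. The first kilobase held 18 beside peaks, and the density was 12.4 peaks per kb up to 5 kb, 15.6 from 5 to 10 kb, 10.0 from 10 to 15 kb and 10.2 from 15 to 20 kb. Beyond the window, non-overlapping ZFAT peaks continued at 12.2 per kb from 20 to 25 kb and 10.8 from 25 to 30 kb, then thinned to 7.10 from 30 to 40 kb and 4.70 from 40 to 60 kb. The 20 kb limit thus cut through a continuous range rather than a gap.

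**Figure D1:**
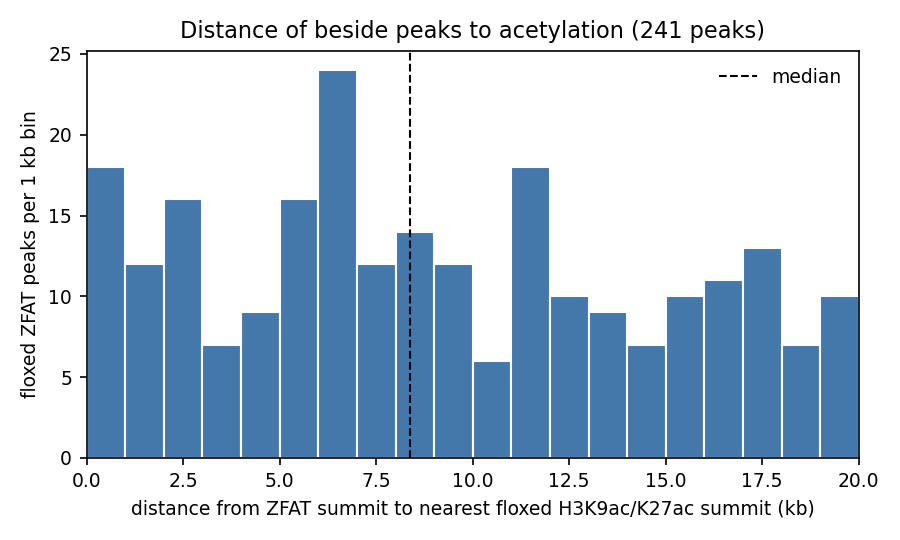
Number of beside peaks in each 1 kb bin (y axis) against the distance from the ZFAT summit to the nearest floxed H3K9ac/K27ac summit in kb (x axis); the dashed line is the median of 8385 bp. Peaks fill the whole window from 251 to 19886 bp.

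Most beside peaks had acetylation on a single side, which is fixed for those with only 1 acetylation summit in the window. The nearest acetylation summit was at a higher coordinate for 114 and at a lower one for 127. Acetylation within 20 kb lay on both sides of 53 beside peaks and on 1 side of 188. A single acetylation summit lay in the window of 136 beside peaks, which could have it on 1 side only. Another 105 had 2 or more, and 9 had 5 or more. The sides were not counted for overlapping peaks, so nothing particular to beside peaks is read from them. The most crowded windows were those of the peaks at chromosome 10, 79465297 to 79465454, with 13 acetylation summits, and chromosome 10, 80826715 to 80826877, with 8. These were weak ZFAT peaks, with P scores (−log10 of the caller's p) of 10.1 and 6.78. At chromosome 17, 45697359 to 45697549, a peak with a P score of 12.8 had 7 acetylation summits around it.

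The peaks closest to acetylation lay a few nucleosome lengths from it. At chromosome 8, 23817067 to 23817216, the summits were 251 bp apart and the floxed ZFAT fold over local background was 9.50. At chromosome 3, 51908997 to 51909158, they were 266 bp apart with a fold of 7.81, and at chromosome 8, 109554907 to 109555076, 375 bp apart with a fold of 6.95. The next, at chromosome 17, 28470725 to 28470876 (462 bp, fold 4.93) and chromosome 10, 94407374 to 94407538 (505 bp, fold 3.89), were weaker by fold. None of these 5 had a peak in any of the 5 other lists.

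At the far edge of the window, the beside peaks just inside 20 kb were at chromosome 13, 58165022 to 58165200 (19886 bp, P score 8.61), chromosome 11, 96160513 to 96160833 (19835 bp, 8.38), and chromosome 5, 77543847 to 77543999 (19832 bp, 6.71). Just outside it were the far peaks at chromosome 2, 91550324 to 91550623 (20169 bp, 164), chromosome 13, 24503062 to 24503244 (20172 bp, 7.33), and chromosome 4, 128425244 to 128425415 (20198 bp, 5.78). The first of these far peaks belongs to the same locus as a strong beside peak at chromosome 2, 91550843 to 91551181, whose summit is 526 bp away. The limit therefore put neighbouring strong peaks into different classes there.

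Most beside peaks were narrow and weak. Their median length was 169 bp, near the 150 bp fragment length used by the caller, and only 15 exceeded 300 bp. The median P score was 8.61, against 8.41 over all floxed ZFAT peaks, 9.62 for overlapping and 8.41 for far peaks. The median fold was 5.53, against 5.35 over all floxed peaks. A P score under 20 was found for 222 beside peaks (92.1%, 88.0% to 95.2%), and 10 (4.15%, 2.01% to 7.50%) reached 50, against 6.77% (4.62% to 9.53%) of overlapping and 1.06% (0.532% to 1.89%) of far peaks. The inferred pileup, the number of fragments stacked at the summit, had a median of 9 over the 237 beside peaks below the caller's P ceiling, and 141 beside peaks rested on 10 fragments or fewer.

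The control signal under the beside peaks lay between that of the other classes. The background at a peak is the scaled control level inferred from fold and P score. Its median was 0.680 fragments at beside peaks, 2.04 at overlapping peaks and 0.122 at far peaks. It was at the lowest value of the list, the genome-wide level, for 62 of 237 beside peaks (26.2%, 20.7% to 32.2%), where 34.1% of all floxed peaks below the ceiling had that value. The shares were 3.07% (1.64% to 5.19%) for overlapping and 48.6% (45.5% to 51.7%) for far peaks. The median pileup followed the same order, at 9 for beside, 14 for overlapping and 7 for far peaks. The part of this control level in the peak calls was not tested.

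**Figure D2:**
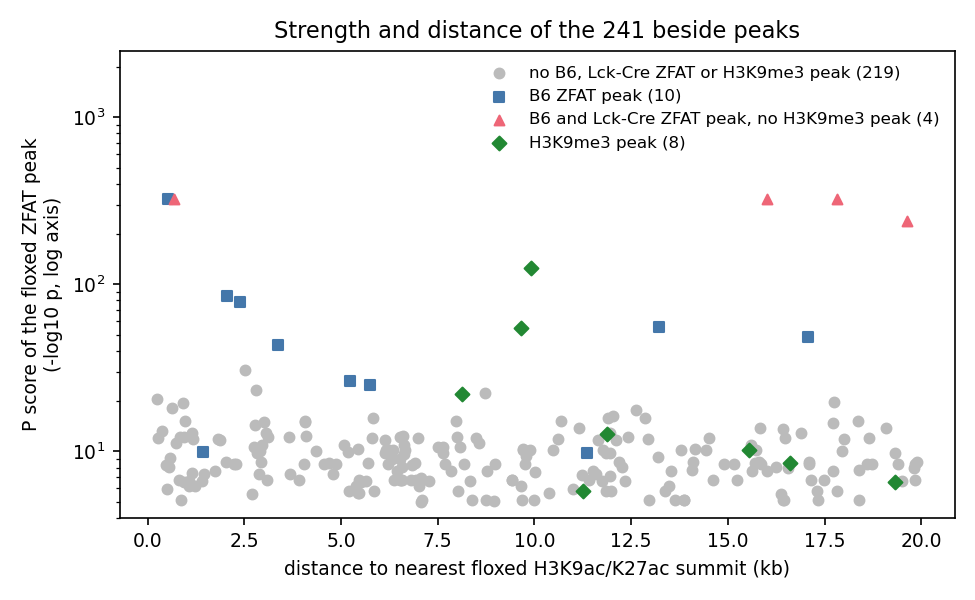
P score of each of the 241 beside peaks (y axis, log scale, ceiling of 323) against its distance in kb to the nearest floxed H3K9ac/K27ac summit (x axis), with symbols for peaks of other lists at the same place. The 10 peaks scoring at least 50 lie between 525 and 19643 bp from acetylation.

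B6 thymocytes, a separate line with an intact Zfat gene, gave a first check on which beside peaks recurred. A B6 peak called against input overlapped 15 of the 241 (6.22%, 3.53% to 10.1%), where 8.26% of all floxed ZFAT peaks were so overlapped. The share was 20.1% (16.5% to 24.1%) for overlapping peaks and 3.67% (2.61% to 5.00%) for far peaks, so the beside interval met that of the far peaks and lay below that of the overlapping peaks. With B6 peaks called against IgG it was 11 (4.56%, 2.30% to 8.02%), where 5.29% of all floxed peaks were overlapped. Both B6 lists had a peak at 9 beside peaks (3.73%, 1.72% to 6.97%), where the share of all floxed peaks was 4.77%. Without the 41 beside peaks that had another floxed ZFAT summit within 20 kb, the share with a B6 peak against input was 6 of 200 (3%, 1.11% to 6.42%). This left out 8 of the 10 beside peaks with a P score of at least 50. The matching share of all floxed peaks without such a neighbour was not taken, so the 3% is not set against 8.26%. A B6 summit of the list against input lay within 20 kb of 49 beside peaks (20.3%, 15.4% to 26.0%), where 14.0% of all floxed peaks had one. Summits coincided closely at the shared places, with a median offset of 13 bp and a largest offset of 64 bp for the 15 shared with the list against input.

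**Figure D3:**
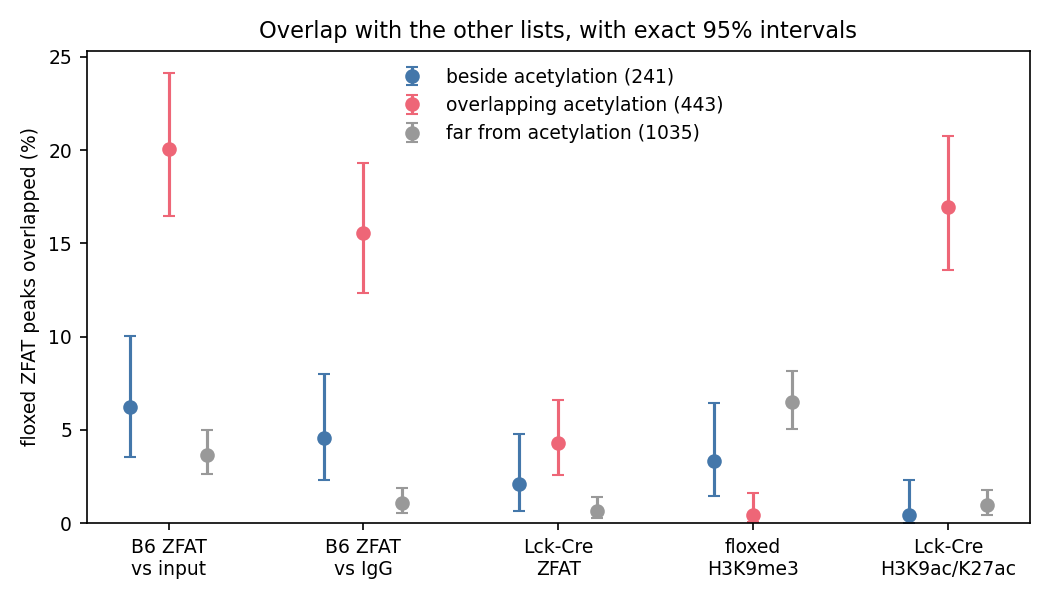
Percent of beside, overlapping and far floxed ZFAT peaks (y axis) overlapped by a peak of each of 5 other lists (x axis); points are shares and bars exact 95% intervals for counting error. Beside peaks had a B6 peak against input in 6.22% and an H3K9me3 peak in 3.32%.

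Recurrence in B6 was nearly all among the strong beside peaks. All 10 that scored at least 50 were met by B6 ZFAT against input (100%, 69.2% to 100%), where 98.0% of all floxed peaks of that strength had one. Against IgG it was 7 of the 10 (70%, 34.8% to 93.3%), where the share of all was 80.4%. The control background was known for 6 of the 10, and 2 of these stood at 20 or more. It was known for 28 of all 51 floxed peaks of that strength, and 8 of these stood at 20 or more. At the P ceiling the background is not known. For scores of 20 to 50, the share against input was 4 of 9 (44.4%, 13.7% to 78.8%), where the share of all floxed peaks was 54.0%. Under 20 it was 1 of 222 (0.450%, 0.0114% to 2.48%), where 3.61% of all floxed peaks were overlapped. Among peaks under 20, overlapping peaks had a B6 peak in 34 of 375 (9.07%, 6.36% to 12.4%) and far peaks in 23 of 1008 (2.28%, 1.45% to 3.40%). The median pileup of these weak peaks was 14 for overlapping, 9 for beside and 6 for far peaks. Against input the far share was higher than the beside share, and its interval met that of the beside peaks. Against IgG the order was reversed. There, 1 of 222 weak beside peaks (0.450%, 0.0114% to 2.48%) and 3 of 1008 weak far peaks (0.298%, 0.0614% to 0.867%) had a B6 peak. The share of all weak floxed peaks against IgG was 1.37%. The part of the pileup in these shares was not tested.

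The B6 library was shallower than the floxed one. B6 ZFAT was inferred at 0.419 of the floxed depth, so a pileup of 9 corresponds to 3.77 fragments there, and the lowest pileup called in the B6 list was 3. For 88 of the 222 weak beside peaks the scaled pileup fell under that value. This count was not made for the other classes, whose weak peaks had median pileups of 14 (overlapping) and 6 (far). It is therefore not read as a trait of beside peaks. The part of depth in the B6 share of weak beside peaks was not tested. The single weak beside peak with a B6 peak against input, picked out after its values were seen, was at chromosome 2, 166720288 to 166720441, with 10 fragments (4.80 to 18.4) in floxed and 6 (2.20 to 13.1) in B6 thymocytes.

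**Figure D4:**
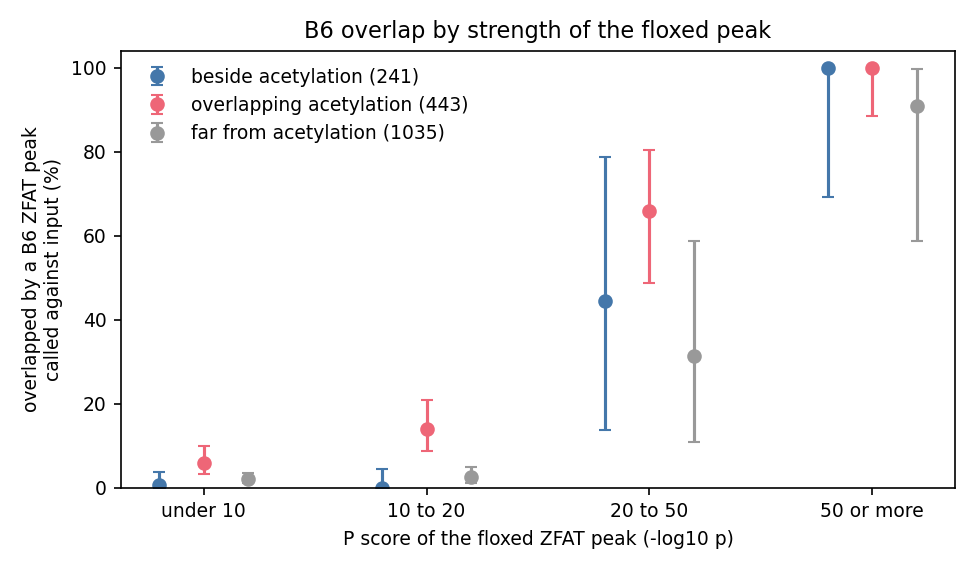
Percent of floxed ZFAT peaks overlapped by a B6 ZFAT peak called against input (y axis) in 4 bands of floxed P score (x axis), for beside, overlapping and far peaks, with exact 95% intervals for counting error. In each class the share is under 10% in the lowest band and over 90% in the highest.

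The strongest beside peak lay at chromosome 17, 25252349 to 25253037, 17817 bp from the nearest acetylation summit. Its fold was 355 in the floxed list, 160 in B6 against input, 72.0 in B6 against IgG and 14.7 in Lck-Cre. At chromosome 2, 90894153 to 90894458, 16025 bp from acetylation, the folds were 158 in floxed, 77.1 in both B6 lists and 6.40 in Lck-Cre thymocytes. Chromosome 2, 91550843 to 91551181, at 19643 bp, had folds of 86.4 in floxed, 56.8 and 49.7 in the B6 lists against input and IgG, and 10.2 in Lck-Cre. These 3 strong sites therefore sat in the outer 4 kb of the window, each with a single acetylation peak within 20 kb.

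The other strong beside peaks not known to stand on high control signal lay from 525 to 13220 bp from acetylation. At chromosome 19, 56622315 to 56622615, the distance was 669 bp and the folds were 142 in floxed, 167 in B6 against input, 152 in B6 against IgG and 10.9 in Lck-Cre. At chromosome 8, 59029425 to 59029716, it was 525 bp, with folds of 107 in floxed and 54.9 and 51.0 in the B6 lists. The peak at chromosome 6, 113259189 to 113259472, 2046 bp away, had 73 fragments (57.2 to 91.8) in floxed and 17 (9.90 to 27.2) in B6 thymocytes, with no B6 peak against IgG. At chromosome 11, 40508293 to 40508552, 2387 bp away, the counts were 37 (26.1 to 51.0) and 13 (6.92 to 22.2), and at chromosome 8, 86794087 to 86794317, 13220 bp away, 53 (39.7 to 69.3) and 27 (17.8 to 39.3). The B6 counts are from a library at 0.419 of the floxed depth.

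**Figure D5:**
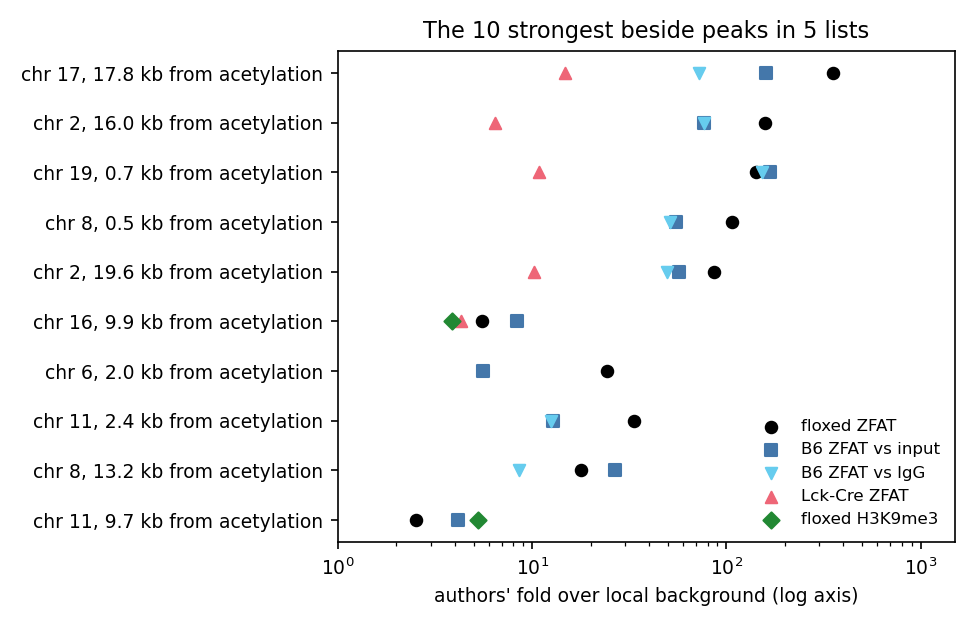
Authors' fold over local background (x axis, log scale) of the 10 strongest beside peaks (rows, named by chromosome and distance to acetylation) in 5 lists; a missing symbol means no overlapping peak. Floxed folds run from 2.53 to 355 and Lck-Cre folds from 4.31 to 14.7.

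The Lck-Cre ZFAT list, from cells in which the floxed sequence is designed to be removed, overlapped 5 beside peaks (2.07%, 0.677% to 4.77%), where 1.80% of all floxed ZFAT peaks were overlapped. All 5 were among the 10 scoring at least 50 (50%, 18.7% to 81.3%), where 58.8% of all floxed peaks of that strength were overlapped. Of the 222 scoring under 20, 0 had an Lck-Cre peak, which allows a share of up to 1.35%, where the share of all was 0.0623%. Without the 41 beside peaks that had another ZFAT summit within 20 kb, 1 of 200 (0.500%, 0.0127% to 2.75%) had an Lck-Cre peak. The matching share of all floxed peaks without such a neighbour was not taken here either. At the 4 sites not known to have high control signal in the floxed list, the Lck-Cre pileups were as follows. They were 35 fragments (24.4 to 48.7) on chromosome 17, 52 (38.8 to 68.2) on chromosome 19, and 24 (15.4 to 35.7) at each of the 2 sites on chromosome 2. The floxed pileup was 103 (84.1 to 125) at chromosome 2, 91550843 to 91551181, and is known only as a lower bound at the others: at least 397 on chromosome 17, 176 at chromosome 2, 90894153 to 90894458, and 159 on chromosome 19. Folds and pileups are values of each list, and the controls are not named in the headers, so they give no measured loss.

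The remaining Lck-Cre site was of another kind. At chromosome 16, 11144119 to 11144292, the floxed pileup of 314 (280 to 351) stood on a control background of 56.4, for a fold of 5.48. In Lck-Cre thymocytes the pileup was 348 (312 to 387) on a background of 79.9, for a fold of 4.31. The same position carried an H3K9me3 peak (fold 3.87, background 63.0) and a B6 peak against input (fold 8.39, background 25.3), and no B6 peak against IgG. It was thus a place where the control was high in 4 lists.

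H3K9me3 met few floxed ZFAT peaks, and the interval for beside peaks held the share of all. An H3K9me3 peak overlapped 8 of the 241 (3.32%, 1.44% to 6.44%), where 4.48% of all floxed ZFAT peaks were overlapped, with 0.451% (0.0547% to 1.62%) for overlapping and 6.47% (5.05% to 8.15%) for far peaks. A known control background of 20 or more was found for 0.698% of all floxed peaks. Of the 8 beside peaks with H3K9me3, 3 lay at that level, and no other beside peak with a known background did. Besides the site on chromosome 16, they were chromosome 11, 3093125 to 3093518 (floxed ZFAT fold 2.53, background 146, H3K9me3 fold 5.29) and chromosome 11, 3035577 to 3035742 (fold 2.30, background 74.1, H3K9me3 fold 6.90). The part of the control signal in these 3 calls was not tested.

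The other 5 beside peaks with H3K9me3 stood on low control signal and were small. At chromosome 8, 119699966 to 119700150, the ZFAT pileup was 8 fragments (3.45 to 15.8) and the H3K9me3 fold 4.46. At chromosome 7, 17476417 to 17476568, the ZFAT pileup was 16 (9.15 to 26.0) and the H3K9me3 fold 4.75. None of the 5 had a B6 or an Lck-Cre ZFAT peak. Their H3K9me3 P scores ran from 5.62 to 9.90. With only H3K9me3 peaks of a P score of 10 or more, 3 beside peaks (1.24%, 0.257% to 3.59%) were overlapped, and these were the 3 at high control background. Within 20 kb rather than at the same place, an H3K9me3 summit was found for 22 beside peaks (9.13%, 5.81% to 13.5%), where 8.96% of all floxed ZFAT peaks had one.

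In Lck-Cre thymocytes, acetylation was called on top of 1 beside peak (0.415%, 0.0105% to 2.29%), where 5.00% of all floxed ZFAT peaks were overlapped. The share was 16.9% (75 of 443) for overlapping and 0.966% (10 of 1035, 0.464% to 1.77%) for far peaks. The rule had removed every peak on floxed acetylation from the beside class, so nothing is read from its share against that of all peaks. That beside peak, at chromosome 5, 121050544 to 121050715, had a ZFAT pileup of 6 fragments (2.20 to 13.1), and the Lck-Cre acetylation peak had a fold of 3.61 and a pileup of 3. The nearest floxed acetylation peak, 12177 bp away, was not called in Lck-Cre. Within 20 kb, an Lck-Cre acetylation summit was found for 34 beside peaks (14.1%, 9.97% to 19.2%), where 10.6% of all floxed ZFAT peaks had one. The shares were 27.5% (23.4% to 32.0%) for overlapping and 2.61% (1.73% to 3.77%) for far peaks, and the rule itself favours beside over far peaks here, because the lists share acetylated places.

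The acetylation peaks that beside peaks lay next to were themselves followed into the Lck-Cre list. The 241 beside peaks had 235 distinct nearest acetylation peaks, with a median P score of 20.9 and a median length of 236 bp, against 25.9 and 290 bp over all 13016 floxed acetylation peaks. Of the 235, 14 (5.96%, 3.29% to 9.79%) were overlapped by an Lck-Cre acetylation peak, where 12.3% of all floxed acetylation peaks were. Among those scoring at least 50 it was 8 of 41 (19.5%, 8.82% to 34.9%), where the share of all was 34.9%. From 20 to 50 it was 5 of 81 (6.17%, 2.03% to 13.8%), where the share of all was 9.95%, from 10 to 20 it was 0 of 69, which allows a share of up to 4.35%, where the share of all was 2.68%, and under 10 it was 1 of 44 (2.27%, 0.0575% to 12.0%), where the share of all was 1.80%. The interval of the 235 together lay below the share of all floxed acetylation peaks. Within the bands under 50 the interval held that share, and in the strongest band its upper end and the share of all were both 34.9% after rounding. The Lck-Cre acetylation library was inferred at 1340000 fragments, against 2190000 for the floxed one; the part of this depth in the shares was not tested. Over all floxed acetylation peaks, the share called in Lck-Cre went from 14.4% for those with no other acetylation summit within 20 kb to 8.29% for those with 3 or more. Among the 235 the intervals overlapped and the share did not fall in step: it was 8 of 118 (6.78%, 2.97% to 12.9%) with no other within 20 kb, 4 of 91 (4.40%, 1.21% to 10.9%) with 1 or 2, and 2 of 26 (7.69%, 0.946% to 25.1%) with 3 or more.

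Some of these acetylation peaks carried a ZFAT peak of their own. Of the 235, 25 were overlapped by another floxed ZFAT peak, as were 447 of all 13016 floxed acetylation peaks. In Lck-Cre, 0 of the 25 were called, which allows a share of up to 12%, or 13.7% by the exact interval. The share over all 447 acetylation peaks overlapped by floxed ZFAT was 17.9% (14.5% to 21.8%). For the 7 of the 25 scoring at least 50 the interval was 0% to 41.0%, where the 447 had 37.3%. For the 13 scoring 20 to 50 it was 0% to 24.7%, where the 447 had 9.90%. With so few peaks in each band, nothing is read from the difference. The other 210 were called in Lck-Cre in 14 cases (6.67%, 3.69% to 10.9%). Counted by beside peak, the nearest acetylation carried ZFAT for 7 of the 10 scoring at least 50 and for 20 of the 222 under 20. The same counts were not made over all floxed ZFAT peaks, so nothing particular to beside peaks is read from them.

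Some beside peaks stood in groups of ZFAT peaks. Another floxed ZFAT summit lay within 20 kb of 41 (17.0%, 12.5% to 22.4%), where 9.13% of all floxed ZFAT peaks had one, with 13.5% (10.5% to 17.1%) for overlapping and 5.41% (4.11% to 6.97%) for far peaks. The neighbour was an overlapping peak for 32 of them, another beside peak for 16 and a far peak for 4, and some had neighbours of more than 1 kind. A neighbour scoring at least 50 was found for 13 (5.39%, 2.90% to 9.05%), where 2.21% of all floxed ZFAT peaks had one. These distances come from the list that chose the members and are descriptions.

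Several of these groups, picked out after their values were seen, held a very strong peak within acetylation. On chromosome 6, the overlapping peak at 113256673 to 113257747 had a fold of 136, and beside peaks followed at summit distances of 2090 bp (fold 24.3), 2785 bp (fold 7.10) and 11998 bp (fold 7.20). On chromosome 7, the overlapping peak at 20147001 to 20147920, with a fold of 312, had a beside peak on each side, at 4128 bp (fold 8.93) and 3309 bp (fold 17.0). On chromosome 10, a beside peak with a fold of 7.23 lay 686 bp from an overlapping peak with a fold of 204, and on chromosome 14 a beside peak with a fold of 10.4 lay 482 bp from an overlapping peak with a fold of 62.0. On chromosome 19, the beside peak at 56622315 to 56622615 lay 605 bp from an overlapping peak with a fold of 202. In other groups the beside peak was the strongest. On chromosome 17 its fold was 355, against 6.91 and 11.4 for its neighbours. At chromosome 8, 59029425 to 59029716, it was 107, against 22.8 for the neighbour. Beside peaks of all such groups are separate calls on neighbouring chromatin and do not count as independent sites.

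The other lists left most beside peaks without a counterpart. In all, 23 of the 241 (9.54%, 6.15% to 14.0%) had a peak in at least 1 of the 5 other lists, where 16.2% of all floxed ZFAT peaks did, and 218 had none. The share was 33.0% (28.6% to 37.6%) for overlapping and 10.5% (8.73% to 12.6%) for far peaks, and the beside interval held the latter. The 5 lists include Lck-Cre acetylation, and the rule had removed every peak on floxed acetylation from the beside class. Nothing is therefore read from the pooled share against that of all peaks or of overlapping peaks. A peak in either B6 list was found for 17 (7.05%), where 8.78% of all floxed peaks had one. Of these 17, 6 had it only in the list against input, 3 of these at a control background of 20 or more, and 2 only in the list against IgG. Over all floxed peaks, 151 had a peak in either list, 142 against input, 91 against IgG and 82 in both. The split is therefore not read as a trait of beside peaks. At P scores of 20 or more, beside peaks without a B6 or Lck-Cre ZFAT peak were at chromosome 14, 31941913 to 31942118 (20 fragments, 12.2 to 30.9), chromosome 11, 94075598 to 94075809 (17, 9.90 to 27.2), chromosome 16, 4549257 to 4549459 (17, 9.90 to 27.2), and chromosome 8, 23817067 to 23817216 (24, 15.4 to 35.7). The first 3 were named after their values were seen.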

How the data were processed

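Per the submitters' processing notes, reads were handled with CASAVA 1.8.1, Trimmomatic 0.22 and SAMtools 0.1.18, and the B6 notes name MACS; neither the aligner nor the MACS version is named there (not given in the sources used here). The 7 deposited lists hold mm9 peaks, per the file headers, called per library with a fragment length of 150 bp and a p threshold of 1e-05. The controls are named only for B6. The deposited P score and Q score are −log10 values, the deposited fold is a ratio that the authors' caller took between ChIP and local background, and the positions are other deposited values in bp. The lower enrichment limit of 5 in the headers did not act on the deposited fold, since 84 beside peaks lay under it.

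Positions were taken as 1-based and closed, and overlap meant at least 1 shared bp. A whole pileup k and a background b were solved from fold = (k + 1)/(b + 1) and the Poisson tail above k, within 0.0001 of the P score; this gave a solution for 100% of peaks below the P ceiling of 323 in each list. The lowest b of a list, times the effective genome size over the fragment length, gave its depth. Intervals are exact Clopper-Pearson or Poisson 95% intervals and cover counting error only, since each group has 1 library. PCR duplicates were not measured, and counts that hold them would not be independent. A count of 0 allows 3 counts. Samples were grouped by their titles; no test between groups was possible with 1 library each. The named regions, on chromosomes other than 18, were the 10 strongest beside peaks, the 5 strongest of those found in both B6 lists, and up to 5 each of those with an Lck-Cre ZFAT, an H3K9me3 or an Lck-Cre acetylation peak, the 5 nearest to acetylation, 3 on each side of 20 kb and the 3 with most acetylation. Members and lists were chosen with earlier results of these data known. The gene lists that were planned were not used, since no mm9 annotation was used here. Alternatives covered distance, overlap and score thresholds. The solver and the position classes were tested on simulated data. Python 3.11.15, numpy 2.4.6, pandas 2.3.3 and scipy 1.17.1 were used.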

Additional observations from a re-analysis of the deposited data

How the results depend on the processing

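Over 10 results and 12 alternatives, 91 of 108 values stayed within the interval of the reported value, or within 1.5 times for a count. A summit distance of 10 kb gave 140 beside peaks with a median distance of 5461 bp and 0% overlapped by Lck-Cre acetylation, and 50 kb gave 472 with a median of 19572 bp. At floxed ZFAT P scores of 10 or more, 99 beside peaks were left, with a median P score of 12.2 and a median fold of 7.66. Their shares were 14.1% with a B6 peak against input, 10.1% against IgG, 5.05% with an Lck-Cre ZFAT peak and 0% with Lck-Cre acetylation. Over all floxed ZFAT peaks, the share against input was 2.79% under a P score of 10 and 98.0% at 50 or more. Against IgG these shares were 0.578% and 80.4%, and with Lck-Cre ZFAT 0.0963% and 58.8%. The higher shares at this threshold are therefore not read as particular to beside peaks. At P scores of 10 or more in the other list, H3K9me3 overlapped 1.24%, Lck-Cre acetylation 0%, and 2.98% of nearest acetylation peaks were called in Lck-Cre. An alternative chosen after seeing the data left out the 41 beside peaks with another ZFAT summit within 20 kb. Of the 200 left, 3% had a B6 peak against input and 0.500% an Lck-Cre ZFAT peak. Matching shares of all floxed peaks without such a neighbour were not taken. The threshold on the floxed ZFAT score and the distance of 10 kb leave fewer beside peaks by construction, and 50 kb leaves more. The score threshold on the other list kept all 241 and left fewer peaks in that list. The cause of the other shifts was not tested. In the floxed list, 141 of the 241 beside peaks rested on 10 fragments or fewer; the part of depth in the shares was not tested. No paired analysis was possible because each ChIP group has 1 library.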

Other observations

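The same position rule, applied to the B6 ZFAT peaks called against input with floxed acetylation as the reference, put 346 of 2000 (17.3%, 15.7% to 19.0%) beside acetylation, close in value to the 14.0% (12.4% to 15.8%) of the floxed list. Of those 346 B6 peaks, 17 (4.91%, 2.89% to 7.75%) overlapped a floxed ZFAT peak. Of the 108 Lck-Cre ZFAT peaks, 16 (14.8%, 8.71% to 22.9%) lay beside floxed acetylation and 6 of these overlapped a floxed ZFAT peak, while all 20 that overlapped floxed acetylation did. H3K9me3 peaks lay beside acetylation in 182 of 2388 cases (7.62%, 6.59% to 8.76%).

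Beside peaks were found on all 20 chromosomes of the floxed list. They made up 14.0% of all floxed ZFAT peaks. By chromosome, the highest shares were 22.4% on chromosome 15 (15 of 67) and 21.2% on chromosome 17 (18 of 85). The lowest was 3.57% on chromosome X (2 of 56). Floxed acetylation peaks numbered 596, 741 and 236 on these chromosomes. Membership requires floxed acetylation nearby, so these shares depend on the rule and nothing is read from them.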
